A study of Mus musculus with 16 samples.

Results

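The cadherins and protocadherins are calcium-dependent adhesion proteins of the cell surface, and their genes were described here across embryonic mouse brain and spinal cord with and without the Nova splicing factors. Members are the genes whose symbol starts with Cdh and a digit or with Pcdh, read from probe sets that carry 1 gene symbol. The rule found 84 of 21634 gene symbols and 997 of 303629 probe sets with 1 symbol. The members are 5 type I classical cadherins, 13 type II cadherins, 5 other cadherins, 3 delta-1 protocadherins, 5 delta-2 protocadherins, 5 other single protocadherins and 48 clustered protocadherins (8 alpha, 22 beta and 18 gamma).

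Classical cadherins join neighbouring cells by binding like molecules across the cell contact, and their cytoplasmic ends hold catenins, which tie the contact to actin. Clustered protocadherins are made from long tandem arrays of first exons, each with its own promoter, joined to shared last exons. Single neurons use different combinations of them, which lets a neuron tell its own branches from those of others. Cdh23 is a long cadherin best known from the inner ear, where it forms tip links with Pcdh15 at the hair bundle, and its messenger RNA is alternatively spliced.

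The study took whole brain and spinal cord from E18.5 embryos of CD1 mice. Nova1/2 double knockout (dKO) embryos are labelled as knockouts of both Nova genes, which encode neuronal RNA-binding proteins that regulate splicing, and wild type (WT) embryos carry both. Affymetrix exon arrays, which hold probe sets along the exons of each gene, were run on 4 dKO brains, 4 WT brains, 4 dKO spinal cords and 4 WT spinal cords, 1 array per biological replicate. Which exons the knockout alleles delete, and whether the loss is in all cells, is not stated in the labels.

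The level of a gene is the median of log2(intensity + 16) over its probe sets whose mean lies above a floor of 6.73, with at least 3 such probe sets, and 67 of the 84 members had one. The exon index of a probe set is the difference, on each array, between its log2 value and the gene's level, so it shows a change of that stretch relative to the rest of the gene. A gene or probe set is called where limma's adjusted p is under 0.05, with Benjamini-Hochberg adjustment over all 14570 genes or all 193126 probe sets tested. Groups do not overlap where the lowest array of one is above the highest array of the other. Nova1 levels averaged 5.24 ± 0.41 in dKO brain and 10.27 ± 0.315 in WT brain, and 6.38 ± 0.11 in dKO cord and 11.69 ± 0.175 in WT cord (SD, n = 4 each). Nova2 levels averaged 7.91 ± 0.124 in dKO brain and 8.66 ± 0.154 in WT brain, and 7.32 ± 0.107 in dKO cord and 8.46 ± 0.193 in WT cord. Both genes were called lower in both tissues, but Nova2 by only 1.68-fold in brain and 2.21-fold in cord, and it stayed above the floor in dKO. Whether its probe sets lie in the deleted stretch was not tested.

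Some arrays stood apart within their groups. The mean level of 9 skeletal muscle genes ran from 7.43 to 9.48 in dKO cords and from 7.68 to 10.12 in WT cords, and it was above 8 in dKO cords 2 and 4 and in WT cords 1 and 4. Brain arrays of number 3 were low for 4 telencephalon genes, at 8.16 in dKO and 7.16 in WT against at least 9.73 on the other 6 brain arrays. Levels of Xist and of Y-linked genes gave 4 females and 0 males among the dKO brains, 2 and 2 among the WT brains, 3 and 1 among the dKO cords, and 2 and 2 among the WT cords. The mean level of 6 fibroblast and meninges genes was 9.54 and 9.34 in dKO cords 2 and 4, 8.39 and 8.12 in dKO cords 1 and 3, and 8.34 to 8.87 in WT cords. Of 5 tested neuron markers 1 was called, Mtap2, lower in dKO brain (log2 change -1.0, limma adjusted p = 0.000116) and in dKO cord (-0.89, adjusted p = 0.000126). The other 4, Snap25, Stmn2, Syt1 and Tubb3, had changes of -0.09 to 0.02 in brain and -0.29 to 0.04 in cord. In such whole-tissue RNA, fewer cells of a type and less RNA per cell cannot be told apart.

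Cdh23 carried the strongest change of the family. Of its 50 tested probe sets, 3 fell steeply relative to the gene in dKO brain and the same 3 in dKO spinal cord, while the gene level itself was not called in either tissue. Probe set 5030559 had levels of 6.62, 6.45, 6.81 and 6.53 in dKO brain, against 8.67, 8.73, 8.88 and 8.51 in WT brain. In spinal cord its levels were 7.27, 7.28, 7.56 and 7.34 in dKO and 9.44, 9.51, 9.42 and 9.35 in WT. Every dKO array lay well below every WT array of its tissue. The exon index of this probe set fell by 1.88 in brain (SE 0.0937, limma adjusted p = 3.71e-08) and by 1.90 in cord (SE 0.0937, limma adjusted p = 8.85e-08).

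Probe set 4439610 had levels of 6.01, 5.29, 6.86 and 6.04 in dKO brain, against 7.83, 8.36, 8.24 and 7.99 in WT brain. In cord it read 8.17, 8.91, 8.85 and 7.83 in dKO and 10.46, 9.998, 10.17 and 9.76 in WT. The dKO arrays of both tissues were again all below the WT arrays, although they spread over more than 1 log2 unit within each dKO group. Its exon index fell by 1.84 in brain (SE 0.251, limma adjusted p = 0.00236) and by 1.49 in cord (SE 0.251, limma adjusted p = 0.0142).

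Probe set 4662572 read 5.93, 5.85, 5.78 and 6.36 in dKO brain, against 8.22, 7.81, 7.93 and 7.55 in WT brain. In cord it read 6.77, 6.18, 6.46 and 6.43 in dKO and 7.99, 8.05, 8.08 and 8.19 in WT. No dKO array reached the lowest WT array of its tissue. Its exon index fell by 1.68 in brain (SE 0.169, limma adjusted p = 9.29e-05) and by 1.45 in cord (SE 0.169, limma adjusted p = 0.000619). In dKO brain the levels of all 3 probe sets except 1 array of each of 5030559 and 4439610 were under the floor of 6.73, so the added 16 makes these log2 changes understate the change of intensity.

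The other 47 tested Cdh23 probe sets stayed between -0.29 and 0.52 in brain and between -0.38 and 0.51 in cord on the exon index, with medians of 0.06 and 0.07. Of all 81 Cdh23 probe sets, the low ones included, 3 had dKO arrays entirely below the WT arrays in both tissues, and they were these 3. Among 193126 probe sets ranked by the size of the fall, the 3 stood at ranks 29, 33 and 43 in brain and 17, 38 and 44 in cord. Of 12340 genes, 11 had at least 3 probe sets called in the same direction in both tissues. Positions of probe sets along the gene were not used here, so the 3 are not assigned to an exon.

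The Cdh23 gene level was 6.75, 6.75, 7.05 and 7.01 in dKO brain and 7.02, 7.04, 7.39 and 6.98 in WT brain. In spinal cord it was 7.82, 7.81, 7.89 and 7.84 in dKO and 8.17, 7.97, 8.01 and 7.87 in WT. The genotypes overlapped in both tissues, and both tissues of the dKO leaned lower. The log2 change was -0.22 in brain (SE 0.107, limma adjusted p = 0.976) and -0.17 in cord (SE 0.107, limma adjusted p = 0.423). Without the 3 probe sets it was -0.14 in brain and -0.11 in cord. The difference of the dKO changes between cord and brain had no called member in gene level (beside 0% of all genes) or exon index (beside 0.000518% of all probe sets), and for the 3 Cdh23 probe sets it was -0.02, 0.35 and 0.23 (limma adjusted p = 0.991 for 5030559, 0.932 for 4439610 and 0.933 for 4662572).

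**Figure D1:**
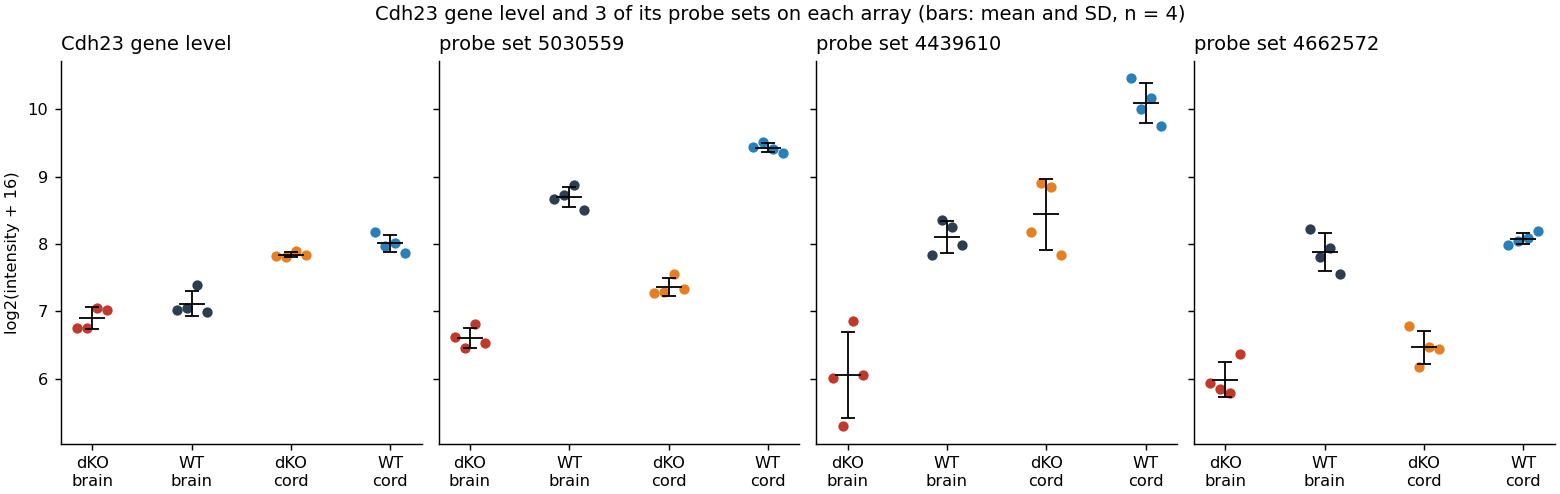
Cdh23 gene level and the 3 probe sets 5030559, 4439610 and 4662572 as log2(intensity + 16) on each array of the 4 groups, with bars for mean and SD (n = 4). The gene level overlaps between genotypes, while each of the 3 probe sets is lower on every dKO array than on every WT array of the same tissue.

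Across the family, 4 of 657 member probe sets had a called exon index in dKO brain (1 higher, 3 lower), beside 0.15% of all probe sets called in that comparison. In dKO spinal cord 8 were called (3 higher, 5 lower), beside 0.388% of all probe sets. The 3 Cdh23 probe sets account for 3 of the calls in each tissue, and for all 3 of the member probe sets called in both. The main fit did not use the replicate numbers. With the number as a block within the 8 brain arrays, 2 brain calls remained. These were 5030559 (limma adjusted p = 0.00796) and 4662572 (limma adjusted p = 0.0467), and the adjusted p of 4439610 was 0.258.

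The remaining brain call was Pcdh10 probe set 5322037, in the delta-2 protocadherin of striatal and thalamic axon pathways. Its exon index was -1.73, -1.49, -1.52 and -1.95 in dKO brain and -2.31, -2.18, -2.21 and -2.46 in WT brain, and every dKO array was higher. It rose by 0.62 (SE 0.113, limma adjusted p = 0.0396), and in cord the change was 0.23 (limma adjusted p = 0.441). It was called in 4 of 22 alternative settings. With the replicate number as a block within the brain arrays its limma adjusted p was 0.185.

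The other cord calls were single probe sets in 5 genes. Pcdh11x, the X-linked delta-1 protocadherin, had probe set 5427554 at -1.71, -1.27, -1.38 and -1.42 in dKO cord and at -2.35, -2.14, -2.55 and -2.11 in WT cord, a rise of 0.84 (SE 0.139, limma adjusted p = 0.0122). Cdh13, the cadherin anchored to the membrane by a lipid, had probe set 4422543 at -2.15, -1.78, -1.78 and -1.72 in dKO cord and at -2.55, -2.79, -2.79 and -2.70 in WT cord, a rise of 0.85 (SE 0.156, limma adjusted p = 0.0253). In raw level that Cdh13 probe set overlapped between genotypes, at 7.63 to 7.86 in dKO cord and 7.11 to 7.87 in WT cord, while the level of its gene fell.

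Pcdhb4 probe set 4626942 read -1.003, -1.05, -1.12 and -1.42 in dKO cord and -0.76, -0.39, -0.44 and -0.47 in WT cord, lower on every dKO array, and fell by 0.64 (limma adjusted p = 0.0198). In raw level it overlapped, at 6.49 to 7.03 in dKO cord and 6.90 to 7.40 in WT cord, a difference of -0.28, while the level of its gene had a change of 0.35. A second Pcdh10 probe set, 5375287, read -2.09, -1.99, -2.09 and -2.04 in dKO cord and -2.78, -2.83, -2.99 and -2.39 in WT cord, a rise of 0.70 (limma adjusted p = 0.0429). Cdh1, the epithelial cadherin, had probe set 4463258 at -0.04, -0.26, -0.26 and -0.01 in dKO cord and at 0.76, 0.35, 0.90 and 0.18 in WT cord, a fall of 0.69 (limma adjusted p = 0.0473). None of these 5 was called in brain, where their changes had the same sign and limma adjusted p = 1. Without the 4 muscle-rich cords, which leaves 2 arrays a group, 1 cord call remained, Cdh23 probe set 5030559.

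**Figure D2:**
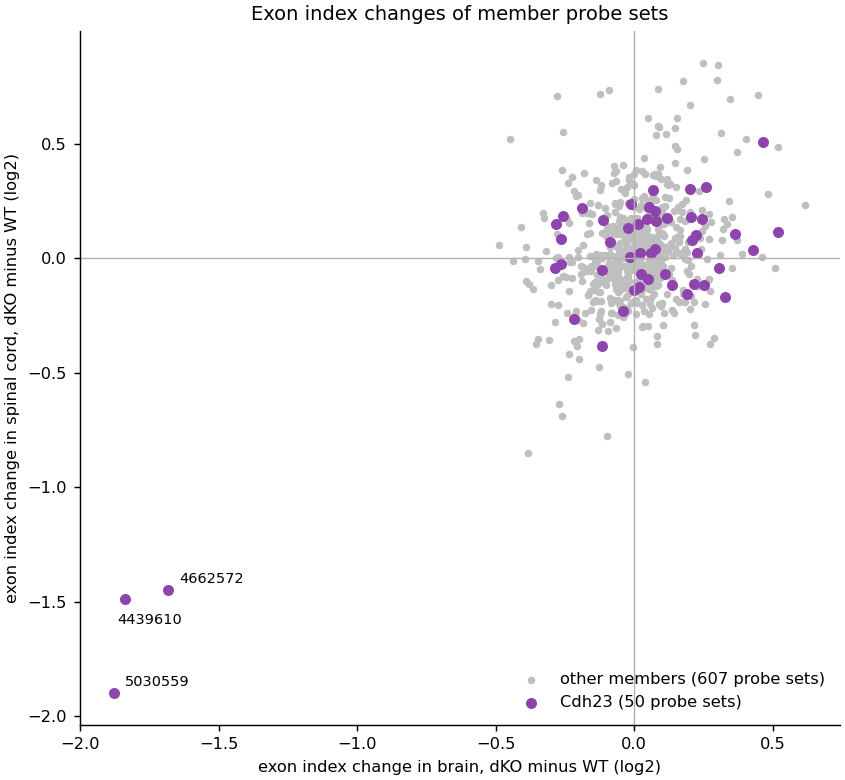
Change of the exon index (dKO minus WT, log2) of the 657 tested member probe sets in brain (horizontal) and spinal cord (vertical), with the 50 Cdh23 probe sets in purple. The 3 labelled Cdh23 probe sets lie between -1.45 and -1.90 on both axes, apart from all other member probe sets.

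At the gene level, 7 of 34 tested clustered protocadherins were called higher in dKO spinal cord and 0 lower. Of the 34, 31 had a higher mean and 3 a lower mean in dKO than in WT cord, with a median log2 change of 0.28, against -0.03 over all 14570 genes. The 7 members called higher in dKO cord were all clustered: Pcdha5, Pcdha7, Pcdhb9, Pcdhb18, Pcdhb22, Pcdhga12 and Pcdhgb4. With Cdh13 and Cdh18, which were called lower, 9 of 67 members (13.4%) were called in cord, beside 5.63% of all genes. By direction, the share over all genes was 1.08% called higher and 4.55% called lower. The mean levels of the muscle genes and of the fibroblast and meninges genes differed among these cords as given above, and their part in these calls was not tested beyond leaving out arrays.

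Pcdhb9 had levels of 8.04, 8.12, 7.82 and 8.13 in dKO cord, against 7.88, 7.25, 7.44 and 7.31 in WT cord. Only WT cord 1 reached into the dKO range. The change was 0.56 (1.47-fold, SE 0.149, limma adjusted p = 0.0326). Pcdhb18 showed the same layout, with 8.11, 7.96, 7.90 and 7.96 in dKO cord and 7.96, 7.28, 7.36 and 7.45 in WT cord, and a change of 0.47 (1.38-fold, SE 0.123, limma adjusted p = 0.0287). It was higher at 10 of its 10 probe sets, and Pcdhb9 at 6 of 6. Gene levels are medians of these same probe sets, so such counts, here and below, restate them.

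Pcdhga12 read 8.22, 8.19, 8.39 and 8.40 in dKO cord, against 7.95, 7.56, 7.93 and 8.02 in WT cord. Pcdhgb4 read 8.07, 8.08, 8.02 and 8.41 in dKO cord, against 7.86, 7.80, 7.64 and 7.75 in WT cord. For both gamma members every dKO cord was higher than every WT cord. The changes were 0.43 for Pcdhga12 (1.35-fold, limma adjusted p = 0.0411) and 0.38 for Pcdhgb4 (1.30-fold, limma adjusted p = 0.0291).

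Pcdha7 read 8.17, 8.51, 8.46 and 8.52 in dKO cord, against 8.20, 7.86, 8.06 and 8.09 in WT cord. Pcdha5 read 9.95, 10.06, 10.09 and 9.99 in dKO cord, against 9.74, 9.61, 9.54 and 9.85 in WT cord. Pcdha5 did not overlap between the genotypes, and Pcdha7 overlapped through dKO cord 1 and WT cord 1. Their changes were 0.36 (limma adjusted p = 0.0395) for Pcdha7 and 0.34 (limma adjusted p = 0.0361) for Pcdha5. Pcdhb22 read 8.04, 7.85, 8.05 and 8.06 in dKO cord and 7.88, 7.58, 7.56 and 7.64 in WT cord, overlapping by 1 array, with a change of 0.33 (limma adjusted p = 0.0463).

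Most of the other clustered members leaned the same way without passing the test. The counts that follow include the 7 called members, and 44% of all genes had a higher mean in dKO cord. Among the 4 tested alpha members all had a higher mean in dKO cord, from 0.24 to 0.38. Of 19 beta members 18 had a higher mean, with Pcdhb11 at -0.02 and the highest, Pcdhb9, at 0.56. Of 11 gamma members 9 had a higher mean, and Pcdhga10 at -0.10 and Pcdhgb1 at -0.03 did not. The mean over the 34 levels was 8.30, 8.26, 8.25 and 8.25 on the dKO cords and 8.21, 7.91, 7.95 and 8.003 on the WT cords. These array means did not overlap, and WT cord 1, the cord with the highest muscle level, lay closest to the dKO cords.

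Most of the 207 clustered probe sets above the floor, 188, are the ones the gene levels were made from, so their count restates those levels. Of the 207, 183 (88.4%) were higher in dKO cord, against 46.5% of all 206355 probe sets with 1 symbol and 33.8% of the 529 probe sets of members outside the clusters. The other 19 belong to members with too few probe sets for a tested gene level, and 18 of them were higher in dKO cord, with a median of 0.23. The clusters hold 14 members without a tested gene level, and of these Pcdhga9 and Pcdhgc3 had 0 probe sets above the floor. With a level over all their probe sets, those under the floor included, 13 of the 14 had a higher mean in dKO cord. This is not the gene level defined above. The largest rise of the 14, Pcdhgc3 at 0.52, was from a mean of 6.04 in WT cord to 6.56 in dKO cord, both under the floor. Probe sets of clustered genes may also read other members of the clusters. Probe sequences were not used here, so signal of 1 member and signal of the others cannot be told apart. The 22 tested genes that neighbour the clusters or lie between them include the members Pcdh1 and Pcdh12. Of the 22, 0 were called higher in dKO cord, beside 1.08% of all genes. The 1 called lower, beside 4.55% of all genes, was Rell2 (log2 change -0.72, limma adjusted p = 0.00168). The median of the 22 was -0.09, against -0.03 over all genes. With these shares, 22 genes are too few to tell the neighbours from other genes.

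How many members were called depended on single arrays and on the fit. Leaving out 1 spinal cord array at a time gave 1 to 11 calls: 1 without dKO cord 2 or without dKO cord 4, 2 without WT cord 3, 3 without WT cord 2, 4 without dKO cord 3, 5 without dKO cord 1, 8 without WT cord 4 and 11 without WT cord 1. No clustered member was called higher without dKO cord 2, without dKO cord 4 or without WT cord 3. Without the 4 muscle-rich cords 1 member, Pcdhb18, was called, with 2 arrays left in each group, and the median of the clustered members was 0.38. A sex term in the fit left 4 called members, Cdh13, Cdh18, Pcdhb18 and Pcdhgb4, and the median of the clustered members was 0.25. With only the cord arrays in the fit, 3 of the 9 stayed called, Cdh13, Cdh18 and Pcdhb9.

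**Figure D3:**
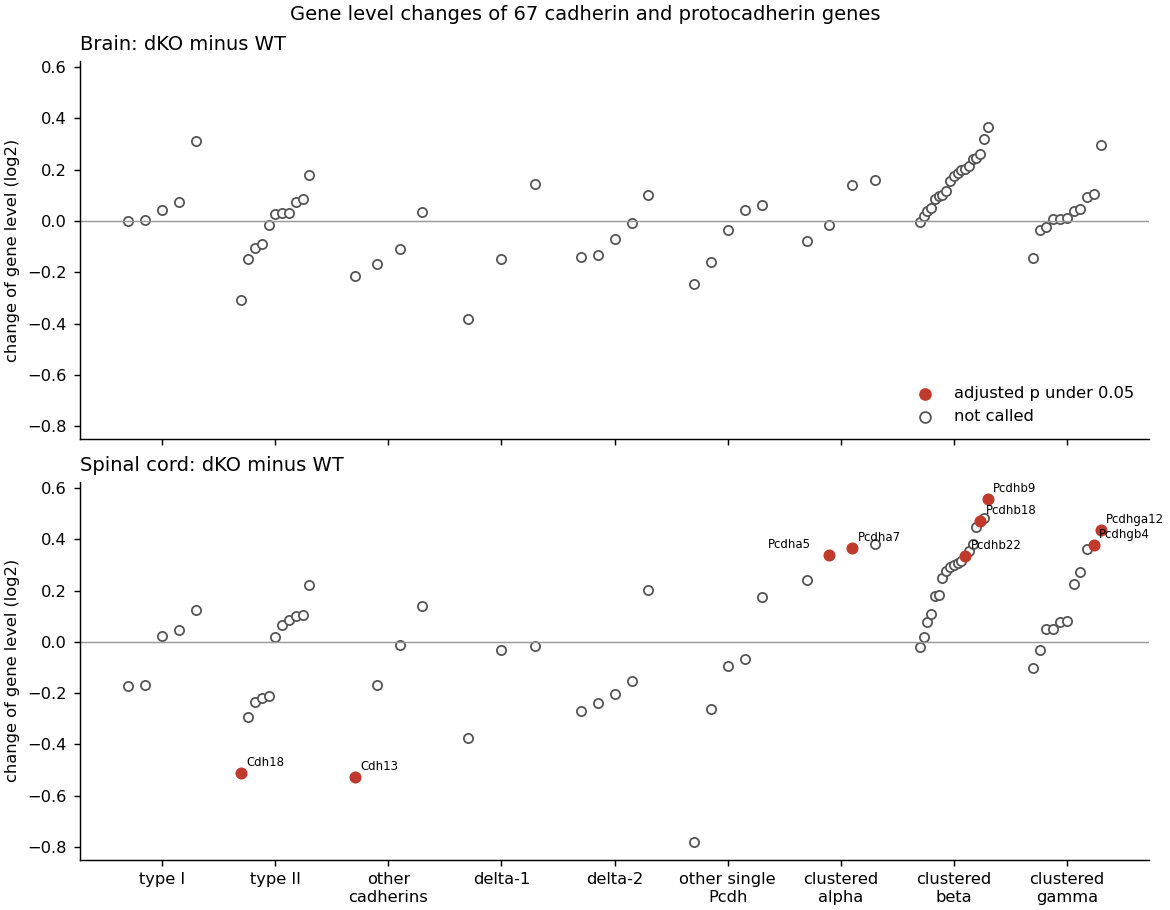
Change of gene level (dKO minus WT, log2) of the 67 tested members in brain (upper panel) and spinal cord (lower panel), by family, filled where the limma adjusted p is under 0.05. In cord 31 of 34 clustered members lie above 0 and the 7 called rises are all clustered, while Cdh13 and Cdh18 are called lower.

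Cdh13 and Cdh18 were called lower in dKO spinal cord. Cdh13 read 9.78, 9.64, 9.45 and 9.52 in dKO cord, against 10.42, 10.06, 10.20 and 9.81 in WT cord. Cdh18, a type II cadherin of the nervous system, read 9.08, 8.93, 9.01 and 8.74 in dKO cord, against 9.65, 9.44, 9.36 and 9.37 in WT cord. Neither gene overlapped between the genotypes. Cdh13 fell by 0.53 (1.44-fold, SE 0.114, limma adjusted p = 0.00942) and was lower at 20 of 23 probe sets. Cdh18 fell by 0.51 (1.43-fold, SE 0.124, limma adjusted p = 0.0176) and was lower at 16 of 16.

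Other members outside the clusters had lower means in dKO cord without passing the test. Pcdh21, now named Cdhr1 and known from photoreceptors, read 6.96, 7.20, 6.95 and 6.73 in dKO cord and 8.04, 7.75, 7.59 and 7.57 in WT cord. It had the largest difference of all members at -0.78 with no overlap, and a limma adjusted p of 0.0569. Pcdh11x read 10.28, 10.25, 10.23 and 10.25 in dKO cord and 10.79, 10.57, 10.62 and 10.54 in WT cord, also without overlap (log2 change -0.38, limma adjusted p = 0.0881). Of the 33 tested members outside the clusters, 21 had a lower mean in dKO cord, with a median of -0.10, and 8 were lower with no overlap, beside 7.62% of all genes.

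**Figure D4:**
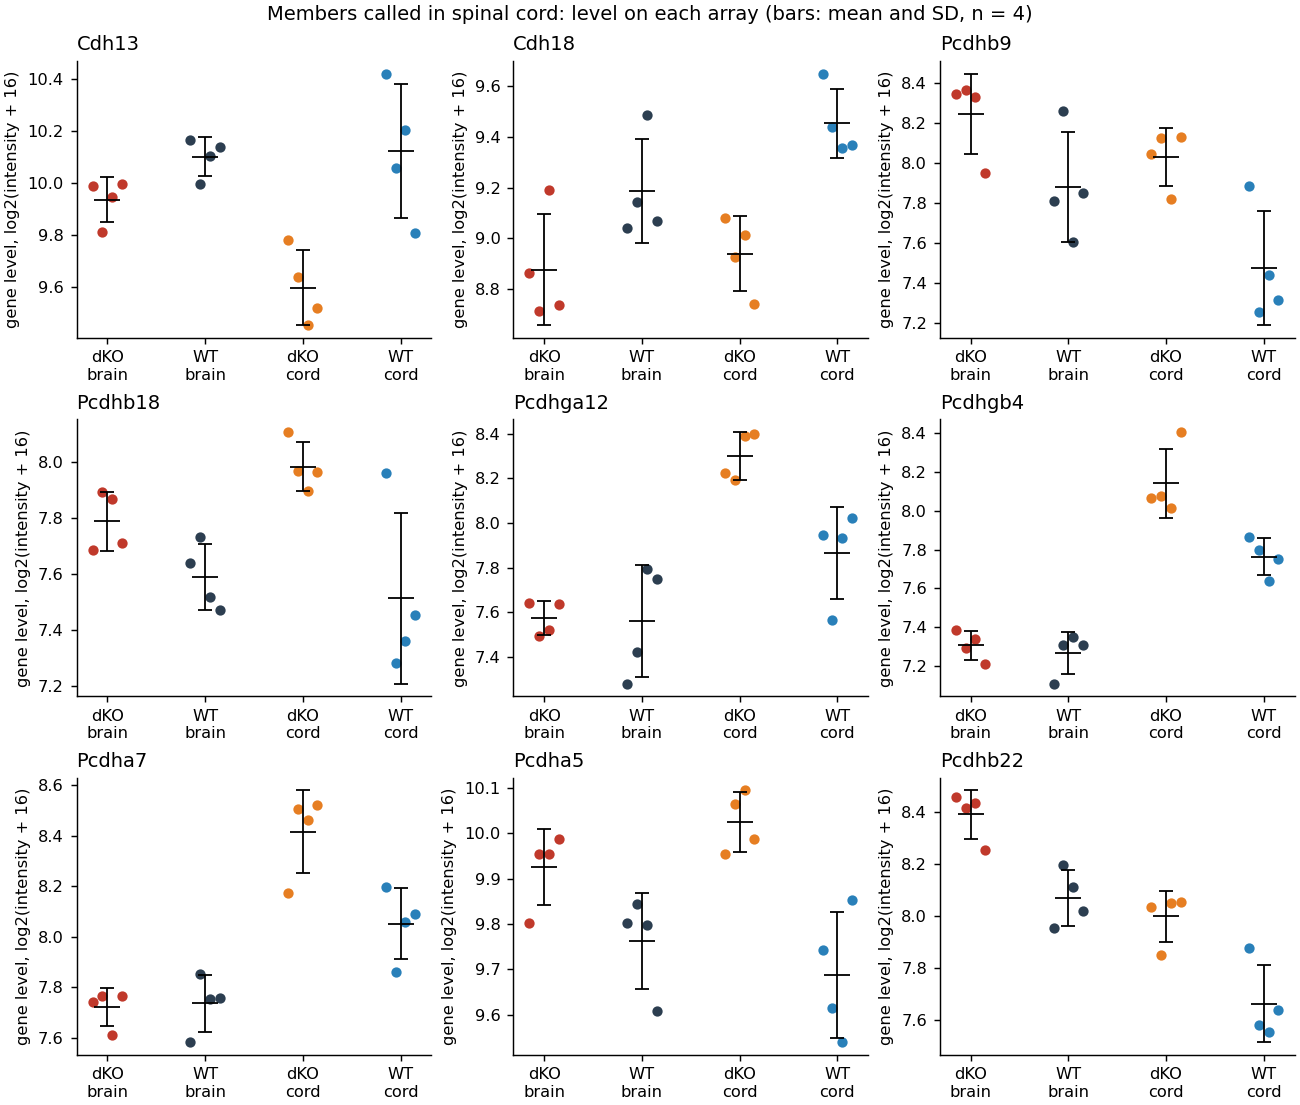
Gene level, as log2(intensity + 16), of the 9 members called in spinal cord, on each array of the 4 groups, with mean and SD (n = 4). Cdh13 and Cdh18 are lower on every dKO cord than on every WT cord; of the 7 clustered members Pcdhga12, Pcdhgb4 and Pcdha5 are higher on every dKO cord, and in the other 4 the genotypes overlap.

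In brain 0 of 67 members were called at the gene level by limma, beside 0.268% of all genes, and 7 members had an unadjusted p under 0.05 (5 higher, 2 lower), beside 5.33% of all genes. Of the 34 clustered members 28 (82.4%) had a higher mean in dKO brain, beside 57.6% of all genes. Their median was 0.10, against 0.02 over all genes. All dKO brains were female, and with a sex term in the fit 23 were higher and 11 lower, with a median of 0.05. With arrays centred on their median gene level, 24 were higher and 10 lower, with a median of 0.08. Of the 207 clustered probe sets above the floor, 164 (79.2%) were higher, against 54.8% of all. Pcdhb22 came closest to a call, at 8.46, 8.41, 8.43 and 8.25 in dKO brain and 7.95, 8.20, 8.11 and 8.02 in WT brain. These groups did not overlap, and the change of 0.32 (SE 0.0963) had a limma adjusted p of 0.357. The change of Pcdhb22 was 0.33 in cord.

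Pcdh11x read 9.97, 9.95, 10.42 and 9.88 in dKO brain and 10.25, 10.36, 10.80 and 10.35 in WT brain. The groups overlapped, but within each replicate number the dKO brain was lower, with differences of -0.27, -0.41, -0.38 and -0.46 for numbers 1 to 4. The change was -0.38 in brain (SE 0.125, limma adjusted p = 0.475), with an adjusted p of 0.131 with the replicate number as a block, and it was also -0.38 in cord. Cdh18 had a change of -0.31 in brain (limma adjusted p = 0.792), and 16 of the 16 probe sets that make its level were lower there too. Cdh13 had -0.17 with no overlap (limma adjusted p = 1).

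The test of the difference between the cord change and the brain change called 0 of 67 members and 0 of 14570 genes with limma, and 6 members had an unadjusted p under 0.05, beside 8% of all genes. Those 6 were Cdh3, Pcdha7, Pcdhgb4, Pcdhga12, Pcdhga4 and Cdh13. Cdh3, the placental cadherin, had -0.17 in cord and 0.31 in brain, and Pcdhga12 had 0.43 in cord and 0.01 in brain. None of the calls made in 1 tissue was therefore shown to differ between tissues.

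Genes that work with the cadherins were read from lists. The counts of called genes stand beside 0.268% of all genes called in brain and 5.63% in cord. With these shares, lists of 8 or 9 genes are too short to tell them from other genes. Of 9 catenins and relatives 0 were called in either tissue, with Ctnnb1, which links classical cadherins to alpha-catenin, at -0.06 in cord and 0.01 in brain. Jup, the catenin of desmosomes, had the lowest p of the list in cord (log2 change 0.31, limma adjusted p = 0.0591). Of 9 genes of the WAVE complex, the actin regulator that delta-2 protocadherins bind, 0 were called in either tissue. Of 8 tested regulators of the clustered protocadherins 0 were called in either tissue. Among these, Ctcf, which folds the cluster, had 0.12 in cord and 0.09 in brain, and the cohesin subunit Smc3 had 0.34 in cord (limma adjusted p = 0.0516).

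Beside 4.55% of all genes called lower in dKO cord, 1 of 8 tested hair-bundle partners of Cdh23 was called, Cib2, a calcium-binding subunit of the mechanotransduction complex, which fell by 0.39 in dKO cord (limma adjusted p = 0.0377). Of 14 tested genes of the wider cadherin superfamily, 3 were called lower in dKO cord, beside the same 4.55%, and 0 in dKO brain, beside 0.268% called. These were Clstn3, a synaptic calsyntenin (-0.66, limma adjusted p = 0.00214), Ret, the receptor for GDNF family ligands (-0.54, limma adjusted p = 0.0344), and Celsr2, a planar polarity cadherin (-0.36, limma adjusted p = 0.0393).

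More members were called between tissues than between genotypes. Comparing spinal cord with brain in WT embryos, 33 of 67 members (49.3%) were called, 16 higher and 17 lower in cord, beside 60.4% of all genes (20.6% higher, 39.8% lower). Among dKO embryos 39 (58.2%) were called, 20 higher and 19 lower, beside 66.4% of all genes (18.6% higher, 47.8% lower). The median over all genes was -0.16 in WT and -0.24 in dKO. With each array centred on its median gene level the WT calls were 24 higher and 9 lower, beside 30.1% of all genes each way. The dKO calls were then 35 higher and 7 lower, beside 30.2% and 30.7% of all genes. All 16 of the WT rises and 14 of the 17 WT falls were also called with the same sign in dKO embryos. The share of WT calls over all genes that recurred in dKO was not counted.

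Of the 5 delta-2 protocadherins, homophilic adhesion proteins of developing axon tracts, 4 were called lower in WT cord, Pcdh8, Pcdh19, Pcdh18 and Pcdh10, beside 39.8% of all genes. The same 4 were called lower in dKO cord, beside 47.8% of all genes. With arrays centred, 3 of the 5 were called lower in WT, beside 30.1% of all genes, and 2 of the 5 in dKO, beside 30.7%. The windows from 250 bases before to 50 bases after the start of these 4 genes are printed because the 4 were each called lower, and that of Cdh23 because it was higher. They are from RefSeq, build GRCm38.p6, read 5′ to 3′ on the strand of the gene, with each CG dinucleotide in capitals. The windows are chr14:79771263-79771562 (minus strand) for Pcdh8, chr3:45378148-45378447 (plus strand) for Pcdh10, chr3:49757267-49757566 (minus strand) for Pcdh18, chrX:133688944-133689243 (minus strand) for Pcdh19 and chr10:60696441-60696740 (minus strand) for Cdh23.
Pcdh8: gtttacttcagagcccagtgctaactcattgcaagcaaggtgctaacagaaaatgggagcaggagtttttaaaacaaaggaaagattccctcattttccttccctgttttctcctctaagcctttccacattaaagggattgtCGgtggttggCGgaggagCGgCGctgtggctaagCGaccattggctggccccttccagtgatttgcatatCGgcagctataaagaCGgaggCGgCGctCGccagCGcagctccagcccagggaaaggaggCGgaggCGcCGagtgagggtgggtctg
Pcdh10: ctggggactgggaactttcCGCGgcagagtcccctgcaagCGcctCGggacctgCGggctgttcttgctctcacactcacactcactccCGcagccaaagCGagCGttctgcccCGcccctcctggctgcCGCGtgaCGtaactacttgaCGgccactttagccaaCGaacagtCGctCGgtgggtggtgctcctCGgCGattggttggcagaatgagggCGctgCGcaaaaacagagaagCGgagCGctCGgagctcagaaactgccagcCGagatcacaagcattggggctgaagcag
Pcdh18: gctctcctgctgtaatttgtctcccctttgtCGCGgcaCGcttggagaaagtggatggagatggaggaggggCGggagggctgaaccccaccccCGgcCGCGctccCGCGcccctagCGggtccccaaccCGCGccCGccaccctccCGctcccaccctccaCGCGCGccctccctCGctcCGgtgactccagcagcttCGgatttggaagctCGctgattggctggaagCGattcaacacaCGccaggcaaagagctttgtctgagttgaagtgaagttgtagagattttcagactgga
Pcdh19: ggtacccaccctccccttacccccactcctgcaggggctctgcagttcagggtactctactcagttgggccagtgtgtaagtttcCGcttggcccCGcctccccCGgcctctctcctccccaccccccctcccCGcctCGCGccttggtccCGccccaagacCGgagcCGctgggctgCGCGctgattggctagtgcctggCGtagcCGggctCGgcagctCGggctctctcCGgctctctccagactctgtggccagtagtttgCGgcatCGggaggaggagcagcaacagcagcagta
Cdh23: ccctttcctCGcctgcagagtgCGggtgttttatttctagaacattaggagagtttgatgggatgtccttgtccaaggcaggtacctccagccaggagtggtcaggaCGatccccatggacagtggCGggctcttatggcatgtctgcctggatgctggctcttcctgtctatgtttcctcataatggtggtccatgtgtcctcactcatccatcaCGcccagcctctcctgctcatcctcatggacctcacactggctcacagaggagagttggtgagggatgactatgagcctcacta
The CG dinucleotide, which reads the same on both strands, occurs 14 times in the Pcdh8 window, 24 times in that of Pcdh10, 23 times in that of Pcdh18, 18 times in that of Pcdh19 and 5 times in that of Cdh23. The median is 7 over all 32851 windows of the table and 11 over the 25 windows that matched 23 of the 84 members. The motif TATAAA, searched on both strands, is present in the Pcdh8 window and in 13.6% of all windows. GGGCGG, searched on both strands, is present in the windows of Pcdh10, Pcdh18 and Pcdh19 and in 35.7% of all windows. These matches are descriptions of the letters.

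Pcdh8 read 8.99, 9.10, 9.30 and 8.70 in WT cord, against 10.01, 9.95, 9.61 and 9.93 in WT brain. In dKO embryos it read 9.04, 8.93, 8.72 and 8.77 in cord, against 9.95 to 10.02 in brain. Every cord lay below every brain of its genotype, and the change was -0.86 in WT (SE 0.121, limma adjusted p = 1.76e-05) and -1.11 in dKO. Pcdh19 read 9.75, 9.27, 9.55 and 9.24 in WT cord, against 10.11, 9.96, 10.19 and 10.10 in WT brain, also without overlap (-0.64, limma adjusted p = 7.88e-05).

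Pcdh18 read 9.17, 9.33, 9.03 and 8.99 in WT cord, against 9.60, 9.67, 9.81 and 9.71 in WT brain (-0.56, limma adjusted p = 0.000116). Pcdh10 read 10.27, 9.83, 10.19 and 9.74 in WT cord, against 10.30, 10.37, 10.38 and 10.45 in WT brain (-0.37, limma adjusted p = 0.00634). Neither overlapped, although the 2 highest WT cords for Pcdh10 came close to the brains. Pcdh17 had -0.08 in WT and -0.18 in dKO and was not called. With arrays centred on their median gene level, Pcdh8, Pcdh19 and Pcdh18 were still called lower in WT cord, and Pcdh10 had a limma adjusted p of 0.0508. In dKO cord with that scaling, Pcdh18 (adjusted p = 0.29) and Pcdh10 (adjusted p = 0.0512) were not called.

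Cdh23 was higher in spinal cord, with all WT cords at 7.87 or more and all WT brains at 7.39 or less. The rise was 0.90 in WT (SE 0.107, limma adjusted p = 3.6e-06) and 0.95 in dKO. Cdh3 read 8.40, 8.31, 8.59 and 8.09 in WT cord, against 6.999, 6.87, 7.16 and 6.77 in WT brain. This was the largest tissue change of the tested members in WT, at 1.40 (SE 0.115, limma adjusted p = 6.51e-08). In dKO it was 0.91, and Pcdha8 (1.12), Pcdh8 (-1.11), Pcdhgb8 (1.09) and Cdh23 (0.95) had larger changes. Pcdh15, the tip-link partner of Cdh23, read 8.66, 8.32, 8.22 and 8.35 in WT cord, against 7.31, 7.54, 8.05 and 7.67 in WT brain, and rose by 0.75 (limma adjusted p = 0.000149).

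The other named rises in WT cord were Pcdha8 (0.88), Pcdh24 (0.79), Pcdh12 (0.62), Pcdhga10 (0.57), Pcdhgb4 (0.50), Cdh6 (0.45) and Pcdha7 (0.31), all without overlap and with limma adjusted p from 2.62e-05 to 0.0123. Pcdh12 is a protocadherin of blood vessels, and Cdh6 a type II cadherin that marks subsets of neurons. The level of Pcdh12 rests on 3 probe sets, of which 2 were higher and 1 lower in WT cord. Its rise was 0.14 to 0.81 over 21 alternative settings and was not called in 2 of them. That of Pcdha7 was not called in 5 of 22. Of the 16 members called higher in WT cord, 11 had a level under 8 in WT brain, near the floor. The other named falls were Pcdhb7 (-0.65), Cdh4 (-0.44), Pcdhb22 (-0.41), Cdh9 (-0.40), Cdh5 (-0.40) and Pcdhgb5 (-0.37), with limma adjusted p from 0.000211 to 0.00755. With arrays centred, Cdh5 (-0.24, adjusted p = 0.073) and Pcdhgb5 (-0.21, adjusted p = 0.058) were not called in WT cord, and Pcdhb7 (adjusted p = 0.458), Pcdhb22 (adjusted p = 0.0876) and Cdh9 (adjusted p = 0.353) were not called in dKO cord. Cdh4 is the retinal cadherin, and Cdh5 the cadherin of endothelial junctions. The mean level of 7 endothelial genes, Cdh5 among them, was 7.79 to 7.97 in WT cords and 8.02 to 8.30 in WT brains, and its part in the fall of Cdh5 was not tested.

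Clustered protocadherins went both ways between tissues. In WT cord 9 of 34 were called higher and 6 lower, beside 20.6% and 39.8% of all genes. Of the gamma members 6 of 11 (54.5%) were called higher and 1 (9.09%) lower. Of the beta members 1 of 19 (5.26%) was called higher and 5 (26.3%) lower, both under the shares of all genes. In dKO cord 7 of 11 gamma members were called higher and 2 lower, and 2 of 19 beta members higher and 3 lower, beside 18.6% and 47.8% of all genes. With arrays centred, 30.1% of all genes were called each way in WT, and 30.2% higher and 30.7% lower in dKO. The gamma calls were then 6 higher and 0 lower in WT and 8 higher and 1 lower in dKO, and the beta calls 2 higher and 2 lower in WT and 9 higher and 0 lower in dKO. Whether the families differ was not tested.

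**Figure D5:**
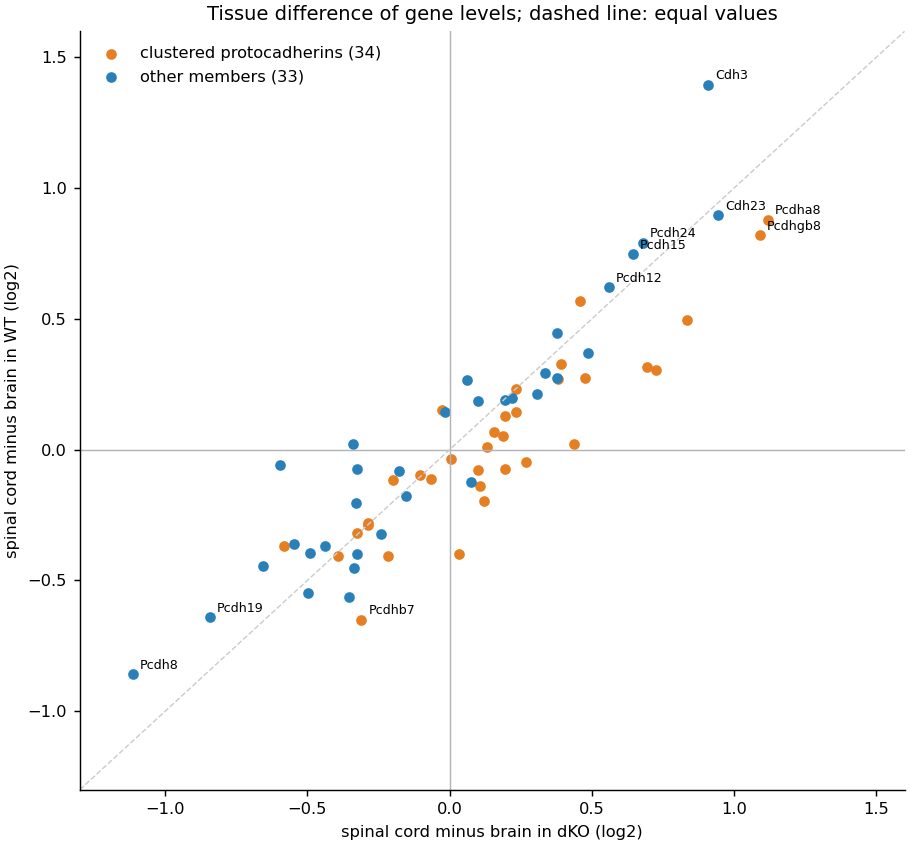
Difference of gene level between spinal cord and brain (log2) in dKO embryos (horizontal) and WT embryos (vertical) for the 67 tested members, with clustered protocadherins in orange and the others in blue. Cdh3 has the highest WT value at 1.40 and Pcdh8 the lowest at -0.86.

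Exon indices also differed by tissue, with 122 of 657 member probe sets (18.6%) called between WT cord and WT brain (75 higher, 47 lower), beside 22% of all probe sets. Of these, 55 of the 75 higher and 30 of the 47 lower probe sets were called with the same sign in dKO embryos. Between dKO tissues 25.9% of all probe sets were called, and how many of all WT calls recurred there was not counted. N-cadherin, Cdh2, the main classical cadherin of neural tissue, had 9 of 26 probe sets called in WT. Its probe set 4349306 had mean exon indices of -2.56 in WT cord and -4.53 in WT brain, a difference of 1.97 (limma adjusted p = 8.4e-05), and one of 1.38 in dKO. In raw level it read 7.57 in WT cord and 6.15 in WT brain, where it was under the floor. In Cdh13, probe set 4416040 had -2.50 in WT cord and -4.19 in WT brain, a difference of 1.69, and one of 2.52 in dKO. It read 7.62 in WT cord and 5.91 in WT brain, again under the floor there, so both brain values give only a low signal and not a measured level.

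Probe set 4353798 of Pcdhb20 averaged 1.57 in WT cord and 0.22 in WT brain, a difference of 1.35, and 1.25 in dKO. Of the 50 Cdh23 probe sets 14 were called between WT tissues. Of those, 5254582 averaged 0.84 in WT cord and 1.83 in WT brain (-0.98, limma adjusted p = 0.000182), while its raw level was 8.85 in WT cord and 8.94 in WT brain and the gene level was higher in cord. Probe set 4439610, one of the 3 that fell in dKO, averaged 2.09 in WT cord and 0.996 in WT brain (1.09, limma adjusted p = 0.00621), and 0.60 in dKO cord and -0.84 in dKO brain. Of the 75 higher probe sets 10 lay below the floor in WT brain, those of Cdh2 and Cdh13 named above among them.

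The highest mean gene levels in WT spinal cord were those of Pcdh11x (10.63), Cdh8 (10.48), Cdh11 (10.30), Pcdh17 (10.19), Cdh2 (10.13) and Cdh13 (10.12). In WT brain they were those of Cdh2 (10.68 ± 0.234), Cdh11 (10.62 ± 0.148), Cdh8 (10.60 ± 0.0593), Pcdh11x (10.44 ± 0.247), Pcdh10 (10.38 ± 0.0606) and Pcdh17 (10.27 ± 0.135; SD, n = 4). In WT brain each neighbour in this order differed by less than the larger SD of the pair. Intensity depends on the probes of each gene, so these orders do not rank transcript amounts.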

How the data were processed

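Total RNA of each embryo's brain or spinal cord was extracted with Trizol and biotin-labelled by Affymetrix's sense target assay, per the labels' protocols. Each deposited value is a linear intensity of 1 probe set, made by the authors with Affymetrix Power Tools and PLIER on build mm8, per the submitters' processing notes, which give no further setting here. PLIER merges the probes of a probe set into 1 intensity. Of 625534 probe sets, 303629 had 1 gene symbol in the platform annotation, 5892 had several and 316013 had none here. Probe sets with 1 symbol were used, and 82 of the 84 member symbols are current in RefSeq GRCm38.p6. Mixed signal from probe sets with several symbols is given only in the closing part.

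Values were taken as log2(intensity + 16), so changes of dim probe sets are understated. The floor of 6.73 was the median of all probe set means. Gene levels needed 3 probe sets above it, and exon indices 5. Group means over all 16 arrays were fitted in R 4.3.3 with limma 3.58.1 (lmFit, eBayes; input by data.table, version 1.17.8), and p-values are two-sided with Benjamini-Hochberg adjustment over all features of a comparison. The scripts were tested on simulated data. The number of arrays, 4 per group, limits the precision.

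Members, families and partner lists were chosen with earlier results of these data known. Named members are Cdh23, all members called between genotypes, the 10 largest rises and falls between WT tissues among called members without overlap, the 6 highest levels per WT tissue, and the called probe sets; Pcdh21, Pcdh11x and the other uncalled members were named after their values were seen.

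Replicate numbers come from the titles. Over gene levels, deviations from the group means of same-numbered dKO and WT brains correlated at 0.212, 0.407, 0.354 and 0.272, all above 0.1 and each the best partner, so the numbers were taken to pair the brains. In spinal cord the correlations were -0.017, -0.12, -0.036 and -0.003, and the numbers were not taken as pairs. The main fit held no term for the numbers, so its SEs and adjusted p values for brain do not use the pairing. Fits with the number as a block were run as alternatives. Alternatives were other pseudocounts, floors, gene summaries, scalings and fits, and leaving out arrays.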

Additional observations from a re-analysis of the deposited data

Results flagged for a closer look

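Of 192 groups of 4 arrays examined among the named members and probe sets, 12 held 1 array whose gap to the nearest other exceeded Dixon's 95% critical value for a gap as a share of the group's range. Chance flags about 1 in 20 groups.

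Among gene levels, the 4th dKO brain had 7.95 for Pcdhb9, against 8.33 to 8.36 on the other dKO brains. Pcdhb22 was 7.85 in dKO cord 2, against 8.04 to 8.06 in the other dKO cords. Pcdhgb4 was 8.41 in dKO cord 4, against 8.02 to 8.08 in the others, and Cdh4 was 9.0 in the same cord, against 9.17 to 9.20. Pcdh11x was 10.42 in dKO brain 3, against 9.88 to 9.97 in the others, and Pcdha7 was 7.61 in that brain, against 7.74 to 7.77. Pcdhgb5 was 8.48 in dKO brain 2, against 8.66 to 8.67. Cdh23 was 7.39 in WT brain 3, against 6.98 to 7.04 in the other WT brains.

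Among exon indices, Cdh13 probe set 4422543 was -2.15 in dKO cord 1, against -1.78 to -1.72 in the other dKO cords. Cdh23 probe set 5254582 was 0.77 in dKO cord 2, against 1.12 to 1.18. Pcdhb4 probe set 4626942 was -1.23 in dKO brain 2, against -1.07 to -1.05. Cdh3 probe set 5043437 was -1.41 in WT cord 3, against -0.19 to 0.03 in the other WT cords.

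In 2 of 657 member probe sets every dKO array moved one way in spinal cord and the opposite way in brain, without overlap with WT in either tissue. Without regard to direction, 27 of the 657 did not overlap between genotypes in brain, beside 2.63% of all probe sets. In cord 55 did not overlap, beside 5.69% of all probe sets. How many of all probe sets moved in opposite ways was not counted. Pcdh11x probe set 4599703 changed by -0.16 in cord and 0.12 in brain, a difference of -0.28. Pcdh18 probe set 5548663 changed by -0.19 in cord and 0.18 in brain, a difference of -0.37. Neither difference was called by limma over all probe sets.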

How the results depend on the processing

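The number of arrays limits all results. The count of members called at the gene level in spinal cord, 9, moved to 3 with no floor, 16 with quantile normalization (12 higher, 4 lower), 5 with only the arrays compared in the fit (1 higher, 4 lower), 4 with a sex term, 1 without the 4 muscle-rich cords, 1 at a threshold of 0.01 and 0 in female cords alone (2 WT arrays, an alternative chosen after seeing the data). It was 1 to 11 when 1 array was left out. All 9 kept their direction in every alternative in which they were tested. With the 75th percentile floor only 4 of the 9 were tested, and 3 were called. The exon index count in cord, 8, was 5 with no floor, 0 with a floor at the 75th percentile, 15 with quantile normalization, 4 with only the arrays compared, 1 without the muscle-rich cords, 2 at the 0.01 threshold, 0 in female cords, and 3 to 9 with 1 array left out. In brain it was 0 with the 75th percentile floor, where the 3 Cdh23 probe sets were not tested, 2 with the replicate block within the brain arrays and 1 in female brains, both chosen after seeing the data, and 3 or 4 with 1 array left out. With the replicate block over all 16 arrays it was 3 in brain and 8 in cord, and gene level counts were 0 in brain and 9 in cord. With the 75th percentile floor, fewer genes were tested, and 20 members were called between WT tissues and 21 between dKO tissues. Called exon indices between WT tissues were 65 without the muscle-rich cords, 64 at the 0.01 threshold and 86 to 124 with 1 array left out. Gene level counts between WT tissues were 29 to 37, and between dKO tissues 31 to 38, with 1 array left out. The median of the clustered protocadherins was 0.17 in brain with the 75th percentile floor (0.05 to 0.13 with 1 array left out). In cord it was 0.38 without the muscle-rich cords, 0.18 in female cords, and 0.23 to 0.35 with 1 array left out.

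Reversals of sign were in small, uncalled differences, apart from Pcdhgb5. The difference of the dKO changes of the Cdh23 level turned to -0.0529 with the 75th percentile floor and -0.0176 with quantile normalization, and it was -0.044 (without WT brain replicate 3) to 0.1038 with 1 array left out. That of probe set 5030559 turned to 0.0423 with pseudocount 1, 0.0143 with no floor and 0.024 without both brains of number 3, and was -0.0857 to 0.0299 with 1 array left out. That of 4439610 turned to -0.0647 with pseudocount 64, and that of 4662572 to -0.0067 with quantile normalization. With no floor, the tissue change of Pcdhgb5 turned to 0.15 in WT and 0.0886 in dKO, and the median of all genes between WT tissues to 0.0019. The cause of these changes was not tested.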

Other observations

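Another 54 probe sets carry several protocadherin symbols and were assigned to no member. Of the 43 above the floor, 34 (79.1%) were higher in dKO cord than in WT cord, with a median log2 change of 0.17, and 27 (62.8%) were higher in dKO brain than in WT brain, with a median of 0.03. These probe sets may read several clustered genes at once.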
